A study of Mus musculus with 12 samples.

Results

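Histone H3 trimethylated at lysine 9 (H3K9me3) was described here at proximal gene promoters of neural progenitors that lack Setdb1. The members were the listed H3K9me3 regions on chromosomes 1 to 19 that the authors' annotation places within 1000 bp of a gene's start. They number 615 of 50654 listed regions (1.21%). The annotation puts 145 of them within 250 bp of the start and 470 in the wider class. They carry 592 gene symbols, of which 19 have more than 1 region. Their lengths ran from 1000 to 24400 bp with a median of 1300 bp, and 506 lie at protein-coding genes. The list holds only regions that the authors had selected as different between genotypes, so it does not show promoters where the mark was alike.

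Native ChIP-seq was made from C57BL/6 mice at E15.5, from neurosphere cultures of neural progenitor cells taken from the ganglionic eminence, with 100000 nuclei per library. The knockout animals (KO) are labelled as a Nestin-KO of Setdb1, which in mouse work usually means deletion in cells that express Nestin, and wild-type animals (WT) served as controls. Which driver line was used was not given in the sources used here. For each genotype there were 3 animals for H3K9me3 and 3 other animals for acetylated lysine 27 of histone H3 (H3K27ac). The H3K9me3 set had male KO animals throughout but only 1 male WT animal beside 2 females. The number that opens a title is also partly mixed with genotype. The comparison of groups cannot tell sex or this number apart from genotype. The deposited table gives 3 values for KO and 3 for WT in each region without naming the animal, and here they go by their place in the list (the first listed KO value, and so on). No member lies at Setdb1 itself, so the deletion was not checked at these regions. No member belonged to the list of markers of other brain and non-neural cell types either.

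SETDB1 is an enzyme that adds methyl groups to lysine 9 of histone H3, often where KRAB zinc finger proteins and their partner TRIM28 bring it to DNA. H3K9me3 is a mark of silenced chromatin and is found over repeats, over clusters of related genes and at promoters that should stay off in a tissue. In neural tissue SETDB1 is known for silencing endogenous retroviruses, germline genes and part of the clustered protocadherins. H3K27ac is found at active promoters and enhancers.

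The promoters of 8 genes whose regions passed the test are printed with CG dinucleotides in capitals, since CG-rich and CG-poor promoters are textbook classes. These 8 were picked to show a contrast between genes lower and higher in KO. Each runs 5′ to 3′ on the gene's strand from 250 bases before the start to 50 after it, from RefSeq on GRCm38.p6. The first 4 belong to regions that were lower in KO.
Hoxa11 (chr6:52245761-52246060, - strand): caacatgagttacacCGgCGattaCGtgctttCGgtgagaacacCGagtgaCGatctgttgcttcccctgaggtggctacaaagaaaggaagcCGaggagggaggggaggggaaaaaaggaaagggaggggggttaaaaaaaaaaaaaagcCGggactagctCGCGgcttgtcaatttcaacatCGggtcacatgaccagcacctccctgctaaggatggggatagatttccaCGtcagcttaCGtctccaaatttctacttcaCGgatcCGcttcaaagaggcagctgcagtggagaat
Dazl (chr17:50293571-50293870, - strand): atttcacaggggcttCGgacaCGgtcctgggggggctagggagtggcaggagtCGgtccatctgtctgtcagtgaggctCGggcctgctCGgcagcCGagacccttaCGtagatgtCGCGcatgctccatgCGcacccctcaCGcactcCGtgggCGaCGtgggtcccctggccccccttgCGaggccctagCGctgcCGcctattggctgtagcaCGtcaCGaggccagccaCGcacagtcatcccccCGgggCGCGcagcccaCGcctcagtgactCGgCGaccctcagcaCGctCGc
Tcfl5 (chr2:180642642-180642941, - strand): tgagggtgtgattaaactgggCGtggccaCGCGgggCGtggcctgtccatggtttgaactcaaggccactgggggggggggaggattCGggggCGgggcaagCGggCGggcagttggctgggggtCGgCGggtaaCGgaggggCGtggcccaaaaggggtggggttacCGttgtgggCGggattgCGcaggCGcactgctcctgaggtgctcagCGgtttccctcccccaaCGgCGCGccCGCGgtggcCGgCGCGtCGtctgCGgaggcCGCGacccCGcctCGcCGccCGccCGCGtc
Nnat (chr2:157559828-157560127, + strand): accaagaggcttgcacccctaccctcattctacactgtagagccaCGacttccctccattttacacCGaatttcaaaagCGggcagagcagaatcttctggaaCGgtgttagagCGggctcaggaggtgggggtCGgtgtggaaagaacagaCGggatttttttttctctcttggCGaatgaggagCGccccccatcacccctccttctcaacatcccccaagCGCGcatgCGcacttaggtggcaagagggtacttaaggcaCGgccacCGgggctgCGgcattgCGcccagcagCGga
The next 4 belong to regions that were higher in KO.
Olfr584 (chr7:103085270-103085569, + strand): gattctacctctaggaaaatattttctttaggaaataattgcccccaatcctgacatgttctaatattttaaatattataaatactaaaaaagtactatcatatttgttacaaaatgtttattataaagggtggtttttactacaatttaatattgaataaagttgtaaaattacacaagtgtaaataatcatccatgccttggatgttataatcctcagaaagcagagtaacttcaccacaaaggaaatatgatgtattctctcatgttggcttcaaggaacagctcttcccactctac
Vmn1r48 (chr6:90036792-90037091, - strand): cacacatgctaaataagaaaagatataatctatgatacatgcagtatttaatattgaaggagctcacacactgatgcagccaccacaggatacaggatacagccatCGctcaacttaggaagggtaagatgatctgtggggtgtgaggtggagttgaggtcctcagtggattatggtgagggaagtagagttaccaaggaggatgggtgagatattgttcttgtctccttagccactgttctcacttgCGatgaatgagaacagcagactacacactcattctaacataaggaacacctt
Defb3 (chr8:19293111-19293410, + strand): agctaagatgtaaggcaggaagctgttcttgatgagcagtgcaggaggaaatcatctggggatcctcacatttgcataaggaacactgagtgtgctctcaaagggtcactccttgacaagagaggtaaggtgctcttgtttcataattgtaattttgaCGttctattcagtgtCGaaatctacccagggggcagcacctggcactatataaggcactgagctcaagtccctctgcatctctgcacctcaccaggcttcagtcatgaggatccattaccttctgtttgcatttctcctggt
Cyp2c29 (chr19:39286835-39287134, + strand): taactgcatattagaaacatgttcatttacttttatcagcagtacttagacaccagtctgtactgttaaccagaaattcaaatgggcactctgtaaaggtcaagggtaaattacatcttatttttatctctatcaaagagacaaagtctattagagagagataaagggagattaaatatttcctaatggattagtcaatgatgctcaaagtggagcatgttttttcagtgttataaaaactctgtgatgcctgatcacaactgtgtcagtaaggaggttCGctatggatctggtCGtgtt
The 4 lower genes held 15 CG dinucleotides at Hoxa11, 28 at Dazl, 35 at Tcfl5 and 17 at Nnat. The 4 higher genes held 0 at Olfr584 and 2 each at Vmn1r48, Defb3 and Cyp2c29. The median over all 32851 promoters of the RefSeq table was 7. These genes are examples and do not stand for all members, since the 149 lower members with a sequence had a median of 8 CG dinucleotides and the 269 higher members had a median of 1. Of the 12 leading lower genes 7 had a sequence, with 1 to 35 CG dinucleotides and a median of 14. Gstt4, which was also lower in KO, had 1 (chr10:75822494-75822793), so a lower region did not always lie on CG-rich DNA. The region covered 269 of the 300 bases at Olfr584 and all of them at the other genes. A promoter sequence could be matched for 418 of the 615 members (68.0%), with 60.1% of the lower and 73.3% of the higher ones, so a comparison of base composition over all members is void and these medians are given for the matched ones only.

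H3K9me3 at promoters went both ways, and the direction differed between gene families. In the authors' deposited table there were 248 members (40.3%) lower in KO, against 71.1% of all listed regions, and 367 (59.7%) higher in KO, against 28.9%. The median log2 fold change of KO over WT in the authors' deposited table was 0.66 over the members and -0.94 over all listed regions. The outer promoter class of 1199 regions stood between, with 55.1% lower in the authors' deposited table, and 82.8% of 11722 gene body regions were lower there. So that the spread between libraries entered the test, limma was fitted to the values of single libraries.

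By limma with Benjamini-Hochberg adjustment over all listed regions, at an adjusted p of 0.05 or less, 52 members were lower in KO (8.46%, against a background of 14.9%). By the same test 17 members were higher in KO (2.76%, against a background of 1.24%). The 3 KO values all lay below the 3 WT values in 193 members (31.4%, background 54.2%) and all above them in 269 (43.7%, background 20.2%). The limma calls lay close to the threshold, with no adjusted p under 0.0471 among the members. Without the third listed KO value limma called 208 lower and 81 higher, and without any other single value it called 0, with 69 to 159 lower and 104 to 133 higher at an unadjusted p of 0.05. In the same 6 fits limma-voom, which tests the reads recovered from the values, called 48 to 198 lower and 62 to 250 higher, with 48 and 250 without the second KO value. The direction of the limma fold change held in all 6 such fits for 611 of the 615 members.

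The reads behind the values set their precision. Steps in the listed values gave 16529, 92369 and 55602 reads in the members for the 3 listed KO values, against 24885, 61229 and 66779 for the 3 WT values. The median member had 17, 92 and 64 reads in KO and 23, 53 and 57 in WT, so the first KO and first WT values are the least precise. A test on those reads with limma-voom called 196 members lower (31.9%, background 58.0%) and 196 higher (31.9%, background 14.1%). Another scaling, by the median ratio to the regions' means, moved fold changes up, by a median of 0.79 on the log2 scale over all regions. It left 199 members below 0 and 416 above, with 14 lower and 361 higher by limma, so every direction here is relative to the authors' scaling. An upward move cannot bring a higher member below 0, and all 367 stayed above it. Counts above 0 with this scaling therefore add no support to the groups on the higher side.

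In the lower members the median normalised value was 15.3, 24.2 and 37.8 in KO, against 53.2, 69.7 and 58.7 in WT. In the higher members it was 58.6, 49.7 and 60.5 in KO, against 28.4, 31.2 and 32.6 in WT. The members had been listed because their groups differed, so these medians describe the lists. Per kilobase the medians were 18.6 in KO and 44.5 in WT for lower members, and 41.8 in KO and 23.0 in WT for higher members.

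**Figure D1:**
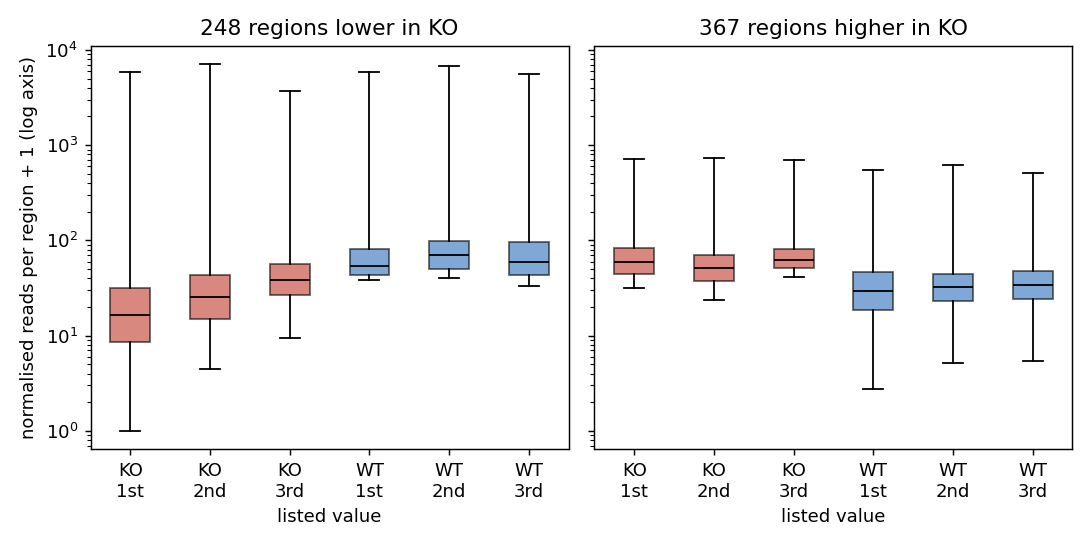
Normalised H3K9me3 reads per region plus 1 on a log axis, at each of the 3 listed KO values and 3 listed WT values, for the 248 members lower and the 367 higher in the authors' deposited table. Boxes span the quartiles with the median as a line, and whiskers reach the lowest and highest region. KO medians of the lower members differ between listed values (15.3, 24.2 and 37.8), while the 3 WT medians of the higher members lie close together (28.4, 31.2 and 32.6).

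Most developmental transcription factors were on the lower side of the authors' deposited table. A list of homeobox genes that also takes in Sox, Gata, Fox and Tbx genes had 19 members. All 19 were lower in the authors' deposited table (background 71.1%), with a median log2 fold change of -1.3. With median ratio scaling 16 of them stayed below 0. By limma 3 were lower in KO (15.8%, background 14.9%) and none higher, and by limma-voom 13 were lower (68.4%, background 58.0%) and none higher. The share of limma calls in this list was thus near that of all listed regions. A longer list of homeodomain genes, drawn up after the values were seen, had 26 members. Of these 24 were lower in the authors' deposited table (92.3%, background 71.1%). Of those 26, 8 were lower by limma (30.8%, background 14.9%), namely Barx1, Lmx1b, Hoxd11, Dbx1, Barhl1, Hmx1, Hoxd13 and Hoxa11. The 2 exceptions were Obox5 and Obox7, homeobox genes of the oocyte, whose regions were above 0 without passing limma.

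Hox genes set position along the body axis and are silent in the forebrain. Hoxa11 (chr6:52245101-52246700) had 33.1, 27.5 and 38.7 normalised reads in KO, against 55.0, 106 and 76.9 in WT. Every KO value was below every WT value, and the log2 fold change was -1.20 ± 0.34 (SE; limma adjusted p = 0.0491). Hoxd13 (chr2:74668301-74669800) had 17.8, 23.5 and 28.6 in KO, against 51.4, 66.4 and 68.9 in WT. The groups again did not overlap, and the log2 fold change was -1.39 ± 0.34 (SE; limma adjusted p = 0.0471). Hoxd11, its neighbour, averaged 17.8 ± 6.67 in KO and 56.5 ± 17.1 in WT (SD, n = 3), with a limma adjusted p of 0.0481. Dbx1, a homeodomain gene that patterns the neural tube, had 94.3, 78.0 and 105 in KO, against 168, 310 and 388 in WT. It carried the most reads of the 8, and its KO values too lay below all WT values.

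Nkx2-1, which specifies the medial ganglionic eminence, was the one member from the list of interneuron genes. Its region (chr12:56533701-56535100) had 5.09, 40.1 and 10.9 normalised reads in KO, against 51.4, 69.7 and 55.1 in WT. The second KO value stood well above the other 2 but below all WT values, and the region did not pass limma (adjusted p = 0.0549) or limma-voom (adjusted p = 0.0805). Hopx, a small homeodomain protein of radial glia and the only member among the progenitor genes, had 10.2, 22.2 and 48.8 in KO, against 47.9, 76.3 and 72.5 in WT. The third KO value overlapped the WT values, and limma gave an adjusted p of 0.0622. None of the serotonin genes and none of the genes for H3K9 methylation and repeat silencing had a member.

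A list of 7 Sox, Fox, Gata and T-box genes was made after the values were seen. All 7 were lower in the authors' deposited table (background 71.1%), 5 of them also with median ratio scaling. None passed limma (4 had an unadjusted p of 0.05 or less, and limma-voom called 3). Foxa2, a factor of endoderm and floor plate, came closest with 17.8, 31.4 and 42.9 in KO, against 55.0, 86.9 and 87.0 in WT (limma adjusted p = 0.0503). Of 6 basic helix-loop-helix genes, also listed afterwards, 6 were lower in the authors' deposited table (background 71.1%) and 5 also with median ratio scaling. By limma 1 was lower (16.7%, background 14.9%). That gene was Tcfl5, a factor expressed in spermatocytes, at chr2:180642201-180644500. Tcfl5 had 10.2, 14.0 and 49.6 in KO, against 112, 174 and 184 in WT. The third KO value was the highest of its group and still under every WT value, and the log2 fold change of -2.92 ± 0.54 (SE; limma adjusted p = 0.0471) was the lowest of the members that passed.

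Genes silenced outside the germline included 2 members. Dazl, an RNA-binding protein needed for germ cells, had 5.09, 12.6 and 20.2 in KO, against 37.2, 54.1 and 66.0 in WT. The groups did not overlap, and the log2 fold change was -2.11 ± 0.60 (SE; limma adjusted p = 0.0489). Sycp2, a part of the synaptonemal complex of meiosis, had 0, 10.9 and 25.2 in KO, against 55.0, 56.6 and 55.8 in WT. Its WT values were close together and its KO values spread widely, and it did not pass limma (adjusted p = 0.0678) but passed limma-voom (adjusted p = 0.0211).

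Imprinted genes are expressed from 1 parental copy, and the list of them had 7 members at 6 genes. These 7 were lower in the authors' deposited table (background 71.1%), 6 of them also with median ratio scaling. By limma 2 were lower (28.6%, background 14.9%). The list does not hold every imprinted gene. Ipw and Snord116l2, non-coding RNA genes of the imprinted Snrpn domain outside it, were higher in the authors' deposited table, with log2 fold changes of 0.65 and 0.76. Ipw had 104, 115 and 84.9 in KO, against 55.0, 70.5 and 68.9 in WT, and did not pass limma (adjusted p = 0.0803). Nnat, a paternally expressed gene of the brain, had 20.4, 10.5 and 12.6 in KO, against 37.2, 69.7 and 65.3 in WT. Its groups did not overlap, and the log2 fold change was -1.92 ± 0.46 (SE; limma adjusted p = 0.0471). Peg3, a paternally expressed zinc finger gene, had 30.6, 81.5 and 73.1 in KO, against 147, 143 and 166 in WT (limma adjusted p = 0.0482). The first KO value of Peg3 was the lowest, and its WT values lay close together. Peg10, Nap1l5, Ndn and both regions of Meg3 did not pass limma, with adjusted p from 0.0622 for Meg3 to 0.123 for Ndn.

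MicroRNA genes had 25 members, of which 20 were lower (80.0%, background 71.1%) and 5 higher in the authors' deposited table. With median ratio scaling 17 were below 0 and 8 above. By limma 4 were lower (16%, background 14.9%), namely Mir196b, Mir124a-2, Mir433 and Mir692-3, and by limma-voom 13 were lower (52.0%, background 58.0%), so these shares too were near those of all listed regions. Mir124a-2 encodes the neuronal microRNA miR-124 and had 61.1, 60.6 and 84.9 in KO, against 167, 200 and 170 in WT. Its groups did not overlap, and the log2 fold change was -1.38 ± 0.26 (SE; limma adjusted p = 0.0471). Mir196b lies within the Hoxa cluster and had 10.2, 20.1 and 14.3 in KO, against 39.0, 57.4 and 60.9 in WT (limma adjusted p = 0.0471). Mir433 sits in the imprinted Meg3 domain of chromosome 12, where 10 members between 109540001 and 109742600 were all lower in the authors' deposited table and 1 passed limma. Small RNAs copied by RNA polymerase III, listed after the values were seen, had 8 regions with only 5 gene symbols. All 8 were lower in the authors' deposited table (background 71.1%), but 6 of them were above 0 with median ratio scaling. By limma 2 of the 8 were lower (background 14.9%), namely Rprl2 and Bc1.

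Clustered protocadherins are adhesion molecules whose stochastic promoter choice gives neurons an identity. All 6 members were lower in the authors' deposited table (background 71.1%) and with median ratio scaling, and 4 passed limma (66.7%, background 14.9%). Pcdhga10 (chr18:37735401-37759800) had 199, 208 and 529 in KO, against 1413, 2207 and 2249 in WT. It was the longest region of the members at 24400 bp, its groups did not overlap, and the log2 fold change was -2.77 ± 0.40 (SE; limma adjusted p = 0.0471). Pcdhgb4 had 68.8, 98.1 and 239 in KO, against 512, 873 and 863 in WT (limma adjusted p = 0.0471). Pcdhb22 and Pcdhb20 also passed, with log2 fold changes of -1.67 and -1.40. Both are in the beta cluster beside the gamma genes, and the first listed KO value of Pcdhb22, 265, was far above its second, 86.3.

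Other lower promoters belonged to no list. Znrf4, a ubiquitin ligase gene, had 12.7, 22.7 and 23.5 in KO, against 74.5, 138 and 107 in WT (limma adjusted p = 0.0471). Plce1, which encodes a phospholipase C, had 15.3, 10.5 and 31.9 in KO, against 106, 85.3 and 89.2 in WT (limma adjusted p = 0.0471). Hic1, a transcriptional repressor, had 28.0, 10.9 and 23.5 in KO, against 62.0, 88.6 and 90.6 in WT (limma adjusted p = 0.0471). In all 3 genes every KO value was below every WT value. Mab21l1 and Mab21l2, related genes of eye and neural development, had log2 fold changes of -1.84 and -1.60, and both passed limma (adjusted p = 0.0471 each). Gstt4, a glutathione transferase gene, averaged 35.4 ± 13.3 in KO and 130 ± 13.4 in WT (SD, n = 3), with a log2 fold change of -1.90 and a limma adjusted p of 0.0471. Of 7 zinc finger genes 5 were lower in the authors' deposited table (71.4%, background 71.1%) and with median ratio scaling. Zfp872 alone passed limma (14.3%, background 14.9%), so both shares were those of all listed regions, and it had 30.6, 19.6 and 42.0 in KO, against 78.0, 100.1 and 124.7 in WT.

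**Figure D2:**
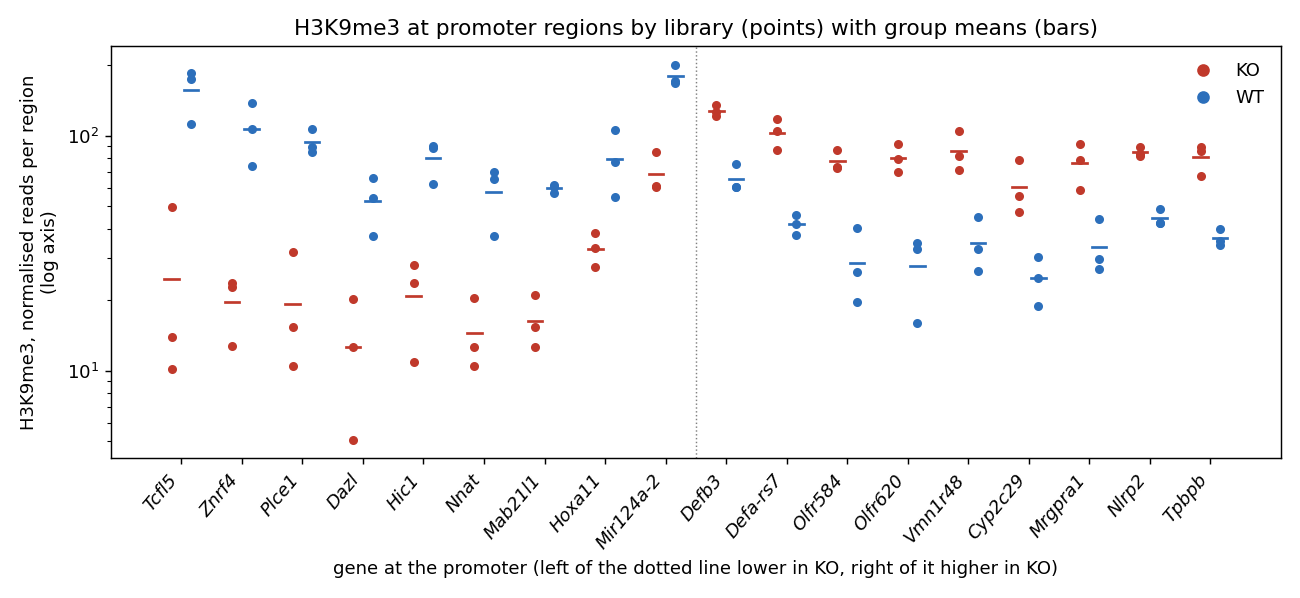
Normalised H3K9me3 reads per region on a log axis for 9 regions lower in KO (left of the dotted line) and 9 higher in KO (right of it), all passing limma. Points are the 3 libraries of KO (left in each pair) and of WT, and bars are group means. KO and WT points do not overlap at any of the 18 genes, and the lower genes spread more widely among KO libraries, as at Tcfl5 (10.2 to 49.6).

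On the higher side, chemosensory receptors were the largest group. Olfactory receptors, the odour sensors of the nose, had 146 members, of which 142 were higher in the authors' deposited table (97.3%, background 28.9%). Median ratio scaling, which moves fold changes up, put 143 above 0. The 3 KO values lay above the 3 WT values in 110 of the 146 (75.3%, background 20.2%). By limma 7 were higher in KO (4.79%, background 1.24%) and none lower, and by limma-voom 74 were higher (50.7%, background 14.1%) and 2 lower. Vomeronasal receptors, which sense pheromones, had 42 members, of which 40 were higher in the authors' deposited table (95.2%, background 28.9%). With median ratio scaling 41 were above 0. By limma 1 was higher (2.38%, background 1.24%) and 1 lower (2.38%, background 14.9%). The median log2 fold change in the authors' deposited table was 0.93 for olfactory and 0.83 for vomeronasal receptors. Without both families 242 members were lower and 185 higher in the authors' deposited table.

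Olfr620 (chr7:103611001-103612900) had 91.7, 70.2 and 79.8 in KO, against 15.95, 32.8 and 34.8 in WT. The lowest KO value was above the highest WT value, and the log2 fold change was 1.57 ± 0.37 (SE; limma adjusted p = 0.0471). Olfr584 (chr7:103085301-103087000) had 86.6, 73.7 and 73.1 in KO, against 19.5, 26.3 and 40.6 in WT, a log2 fold change of 1.46 ± 0.35 (SE; limma adjusted p = 0.0471). Vmn1r48 (chr6:90035901-90037900) had 81.5, 71.5 and 104 in KO, against 26.6, 32.8 and 45.0 in WT. Its groups did not overlap either, and the log2 fold change was 1.29 ± 0.33 (SE; limma adjusted p = 0.0471). The vomeronasal exception Vmn2r29 was lower in KO, with 86.6, 54.5 and 54.6 in KO, against 213, 118 and 141 in WT (limma adjusted p = 0.0475). Values of close relatives are uncertain, since the counting of reads that match several copies was not given in the sources used here. Both bitter taste receptor members, Tas2r134 and Tas2r139, were higher in the authors' deposited table, with limma adjusted p of 0.0506 and 0.0564.

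Clusters of secreted defence and reproductive proteins had 35 of 38 members higher in the authors' deposited table (92.1%, background 28.9%). With median ratio scaling 37 were above 0. By limma 4 were higher (10.5%, background 1.24%). Those 4 were Defb3, Defb46, Defa-rs7 and Serpinb9f, and defensins are antimicrobial peptides. Defb3 (chr8:19292301-19295100) had 135, 126 and 121 in KO, against 60.3, 75.5 and 60.2 in WT. The KO values were close together and well above WT, and the log2 fold change was 0.96 ± 0.26 (SE; limma adjusted p = 0.0478). Defa-rs7 had 117, 87.2 and 104 in KO, against 46.1, 37.7 and 42.1 in WT, a log2 fold change of 1.27 ± 0.28 (SE; limma adjusted p = 0.0471). Serpinb9f, a serine protease inhibitor, had 124.8, 100.3 and 130.3 in KO, against 72.7, 54.1 and 57.3 in WT (limma adjusted p = 0.0495).

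Enzymes of drug and lipid metabolism had 24 members, of which 22 were higher in the authors' deposited table (91.7%, background 28.9%). With median ratio scaling 24 were above 0. Cyp2c29 alone passed limma (4.17%, background 1.24%). The list covers families named by symbol and leaves out other metabolic enzyme genes, which were not counted. Among those lower in the authors' deposited table were Gstt4, Scd3, a fatty acid desaturase, and Srd5a2, a steroid reductase. Pla2g2c, Lpin2 and Lpcat2 were lower there too, with log2 fold changes of -1.73, -1.5 and -1.42. Gstt4 and Scd3 were lower by limma (adjusted p = 0.0471 each), and Srd5a2 did not pass (adjusted p = 0.0548). Cyp2c29, a liver cytochrome P450, had 79.0, 47.5 and 55.5 in KO, against 24.8, 18.9 and 30.5 in WT. Its first KO value was the highest, the groups did not overlap, and the log2 fold change was 1.25 ± 0.36 (SE; limma adjusted p = 0.0490). A list of exocrine, sensory-neuron and immune gene clusters, made after the values were seen, had 28 members. Of these 27 were higher in the authors' deposited table (96.4%, background 28.9%) and 27 were above 0 with median ratio scaling. By limma 3 were higher (10.7%, background 1.24%). They were Mrgpra1, Mrgpra2b and Nlrp2. Mrgpra1, an itch receptor of sensory neurons, had 79.0, 58.9 and 91.6 in KO, against 44.3, 27.1 and 29.7 in WT (limma adjusted p = 0.0492). Nlrp2, a member of the NLR family, had 81.5, 83.7 and 89.1 in KO, against 42.5, 42.7 and 48.6 in WT (limma adjusted p = 0.0499). Tpbpb, a placental gene in no list, had 89.2, 67.6 and 85.7 in KO, against 35.5, 40.2 and 34.1 in WT (limma adjusted p = 0.0474).

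Immune receptor clusters were split, with 3 of 6 members lower and 3 higher in the authors' deposited table and none passing limma, though 3 lower and 3 higher passed limma-voom, and 3 lower and 2 higher had an unadjusted limma p of 0.05 or less. Krtap12-1, a hair protein gene, was lower by limma (adjusted p = 0.0499), and Krt14, a keratin of skin, and Snord116l2, a small nucleolar RNA, did not pass (adjusted p = 0.0976 and 0.0927). The 118 predicted and unnamed genes were split too, with 57 lower (48.3%, background 71.1%) and 61 higher (51.7%, background 28.9%) in the authors' deposited table. By limma 7 were lower (5.93%, background 14.9%) and 0 higher (background 1.24%). At an unadjusted limma p of 0.05, 21 were higher, and limma-voom called 29 higher. Of the 4 regions with the highest KO mean in normalised reads per region, Sfi1, 4933438K21Rik, Trpm8 and Sp110, none was called by limma (4933438K21Rik was lower by limma-voom and had an unadjusted limma p of 0.0288), and in WT the highest means included the called Pcdhga10 and Rps19-ps3. Sfi1 had 5879, 7071 and 3664 in KO, against 5797, 6748 and 5622 in WT, and its groups overlapped (limma adjusted p = 0.593). Trpm8 had 721, 735 and 693 in KO, against 551, 615 and 510 in WT, groups that did not overlap but differed by 0.36 on the log2 scale (limma adjusted p = 0.135).

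**Figure D3:**
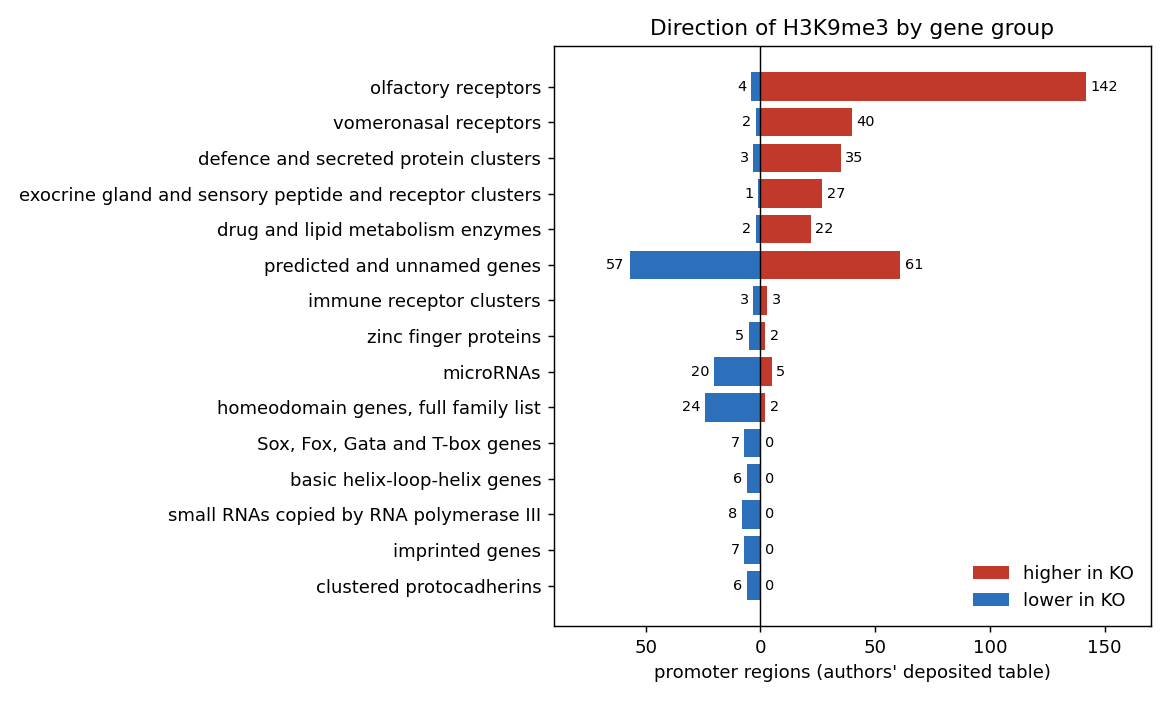
Number of promoter regions higher in KO (right of 0) and lower in KO (left of 0) in the authors' deposited table, by gene group, with the count at each bar. Olfactory receptors (142 higher, 4 lower) and homeodomain genes (2 higher, 24 lower) stand at opposite ends, and predicted genes are split (61 higher, 57 lower).

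**Figure D4:**
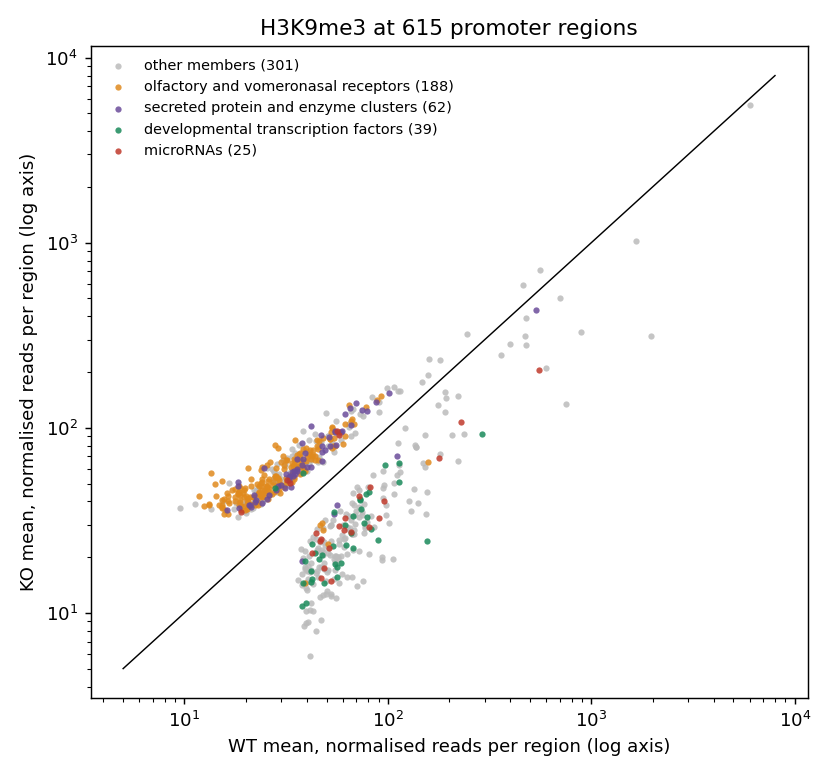
Mean normalised H3K9me3 reads per region in KO (vertical) against WT (horizontal), both on log axes, for the 615 members, with a line of equal values. Receptors and secreted protein and enzyme clusters lie mostly above the line, and developmental transcription factors and microRNAs mostly below it. The gap along the line comes with a list of selected regions, and Sfi1 is the point at the upper right.

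The members were not spread evenly over the genome. Chromosome 7 held 169 of them, of which 18 were lower and 151 higher in the authors' deposited table. Joining members less than 1 Mb apart gave 24 clusters of 5 or more members with 318 members (51.7%). These clusters held 277 of the higher members (75.5%) and 41 of the lower ones (16.5%). In contrast, 131 lower members (52.8%) and 30 higher members (8.17%) had no other member within 1 Mb. The spread of all gene promoters or of all listed regions was not counted. These shares therefore have no background and describe which genes are listed. The largest cluster, chr7:102803401-108846200, had 69 members around olfactory receptors, of which 2 were lower and 67 higher in the authors' deposited table. A cluster at chr8:19197901-21665800 with 18 defensin-rich members and one at chr4:60069301-61782700 with 10 members around major urinary protein genes were higher throughout in the authors' deposited table. The protocadherin cluster on chromosome 18 was lower throughout there, with 7 members of which 5 passed limma. A cluster at chr4:143656201-147829100 held 10 lower and 10 higher members in the authors' deposited table.

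Surrounding regions of the table were counted within 50 kb of each member, from midpoint to midpoint. Only listed regions outside the members were counted, so other members nearby are left out. The median higher member had 8 such regions nearby that were higher in the authors' deposited table. The median lower member had 2 such regions that were lower there. No listed region outside the members, of either direction, lay within 50 kb of 39 lower members (15.7%) and 4 higher members (1.09%). Around the 19 members of the homeobox list there were 84 lower and 0 higher neighbours in the authors' deposited table. Over all listed regions 71.1% were lower there and 28.9% higher. Neighbours around other listed regions were not counted, so the numbers of neighbours have no background. Nnat, Peg3, Peg10, Tcfl5 and Hic1 had no listed region outside the members, of either direction, within 50 kb. Members of 1 cluster share neighbours, so these counts are not independent. The distance from the gene's start, as the table gives it, had a median of -23.5 bp for lower members, 49.2% of which lay downstream of the start. It was 267 bp for higher members, with 65.4% downstream.

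**Figure D5:**
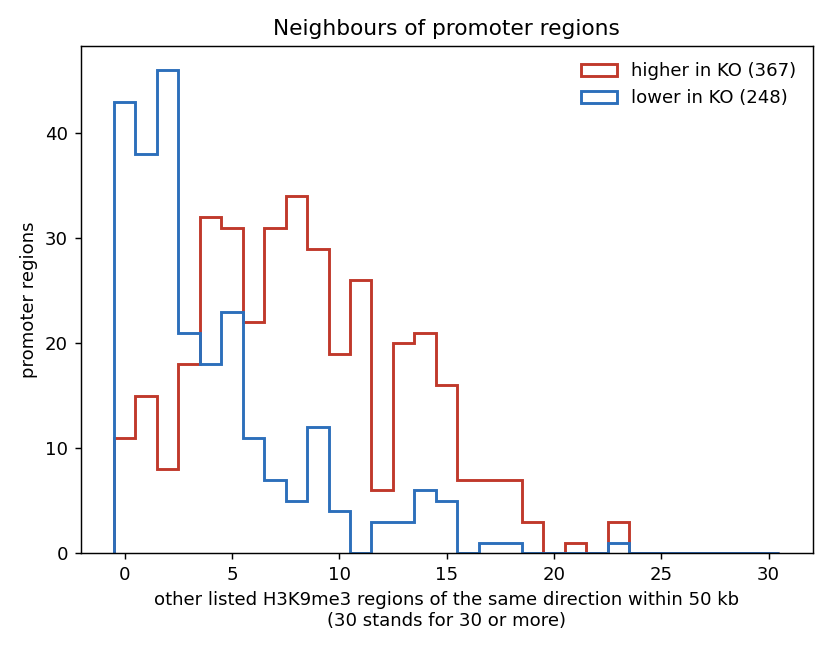
Number of promoter regions (vertical) by the number of listed H3K9me3 regions of the same direction within 50 kb (horizontal, with 30 standing for 30 or more). Neighbours are listed regions outside the members, shown for members higher in KO and members lower in KO. Lower members pile up at few neighbours (median 2), and higher members reach a median of 8.

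H3K27ac was measured in other animals and was not used to choose the regions, so it could be compared at the same promoters. A peak overlapped 31, 27 and 13 members in the KO libraries, against 24, 18 and 7 in the WT libraries. The KO and WT ranges overlap, and the means of 23.7 ± 9.45 in KO and 16.3 ± 8.62 in WT (SD, n = 3 each) gave p = 0.4 in an exact two-sided permutation test, which cannot go below 0.1 here. The libraries also differed in the length of their peak lists, at 26393, 42712 and 11502 peaks in KO and 31951, 37342 and 12505 in WT, and the part of list length in the counts was not tested. Within the 1 KO and 1 WT library whose titles share a number the counts were 31 in KO and 24 in WT, and for the other number they were 27 and 13 in KO and 18 and 7 in WT.

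A peak in any library lay at 38 members, of which 33 were lower and 5 higher in the authors' deposited table, and 577 members had none. Among lower members the counts were 28, 24 and 11 in KO, against 22, 15 and 7 in WT (p = 0.4, exact two-sided permutation test). Among higher members they were 3, 3 and 2 in KO, against 2, 3 and 0 in WT (p = 0.7, same exact permutation test). Of the 38 members 20 had a peak in more KO than WT libraries, 5 in more WT libraries and 13 in equal numbers. Pcdhga10 and Rps4l, a ribosomal protein gene copy, carried a peak in each KO library (3 of 3) but in no WT library. Zfp872 had one in 2 KO libraries and no WT library, and Tcfl5 and Dazl each had one in 1 KO library and no WT library. Pcdhgb4, Vmn2r29, Zfp97 and Zfp873 had a peak in all 6 libraries. None of the 19 members in the homeobox list or the 146 at olfactory receptors had a peak in any library, as was so for 577 of all 615 members.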

How the data were processed

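The 12 libraries were made by native ChIP-seq from 3 animals per genotype and mark, and the study treats animals as replicates. Per the submitters' processing notes the build was mm10 and the tools included Bowtie2 2.3.4.3 and MACS2. Which tool compared the genotypes was not given in the sources used here. As H3K9me3 data the authors deposited 1 table built from windows of 1 kb. It lists the normalised signal of each library joined in a cell per genotype, group means of that signal, enrichment as a ratio, log2 fold changes of KO over WT, and p-values and adjusted p-values, per the file headers. The authors' H3K27ac files, 1 MACS2 list of peaks for each library, give each peak's score, its fold enrichment and its -log10 p and q, and only peak positions were used in the main comparison.

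The listed values were whole multiples of 1 step per library (100% of low values within 0.1 reads), which gave the reads behind them. A region's reads and its library's read total both vary by chance, so deeper libraries give more precise values. limma 3.58.1 (R 4.3.3) was fitted to log2(value + 1) of all 50654 regions with a mean-variance trend and no covariates. Fold changes are therefore on the log2(value + pseudocount) scale, and a region's call used an adjusted p (Benjamini-Hochberg) of 0.05 or less. Since the authors had chosen these regions with the same libraries, the adjusted p carries that choice. limma-voom on the recovered reads, other scalings, pseudocounts and left-out values were alternatives. H3K27ac peaks were matched to members by an overlap of 1 bp and compared with exact permutation tests. Promoter sequences came from RefSeq, matched by transcript, then by gene symbol, then by synonym, within 500 bp of the start in the table.

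Members, gene lists and the rule for named genes were chosen with earlier results of these data known, and 5 lists were added after the members' values were seen. Within the lists, regions were named by the smallest limma p, up to 4 per list, with the 12 leading lower and higher regions outside the receptor and predicted gene lists, the regions of highest signal and those with H3K27ac in all libraries of 1 genotype or of both. Other homeodomain, microRNA, forkhead and small RNA genes named in the text were chosen after their values were seen.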

Additional observations from a re-analysis of the deposited data

How the results depend on the processing

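The limma counts of 52 lower and 17 higher members depended on the settings. With a pseudocount of 0.5 limma called 44 lower and 11 higher, and with a pseudocount of 4 it called 103 and 50. Median ratio scaling gave 14 lower and 361 higher, and a fit on chromosomes 1 to 19 gave 60 and 27. Without a mean-variance trend limma called 0 lower and 0 higher, with 166 and 170 at an unadjusted p of 0.05. limma-voom called 196 in either direction. With 1 listed value left out limma called 0 to 208 lower and 0 to 81 higher, and limma-voom, so repeated only after seeing the data, called 164, 48 and 198 lower and 86, 250 and 193 higher without the first, the second or the third KO value. Without the first, the second or the third WT value it called 186, 138 and 165 lower and 123, 62 and 76 higher. The second KO value is from the deepest library. A filter on a mean of 10 or more removed no region. In the 250 bp class alone limma called 14 lower and 3 higher, and the authors' deposited table has 61 lower and 84 higher. Without receptors 9 were higher by limma and 185 in the authors' deposited table. The H3K27ac difference of 7.33 members was 5.67 to 7.0 under other peak rules and 2.67 to 12.7 with 1 library left out. Over 76 named regions 985 of 988 values kept their direction, and the exceptions were log2 fold changes of 0.65 for Sfi1 and 0.0535 for 4933438K21Rik with median ratio scaling, and of 0.10 for Sfi1 without the third KO value (-0.38 to 0.10 with 1 value left out). The cause of these changes was not tested. The filter, the fit without a trend and the fit on chromosomes 1 to 19 leave a fold change as it was, so they could not turn a direction. Many named regions had also been picked by a small limma p in the same values. The promoter sequence alternatives were not run because too few members had a sequence. No paired analysis was possible because the listed H3K9me3 values carry no animal number. The first KO library had a median of 17 reads per member, which limits the precision of single regions.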

Other observations

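The table also lists 23 promoter regions on the sex chromosomes, which are outside the members. Of the 21 on chromosome X, 20 were lower and 1 was higher in KO in the authors' deposited table, and both regions on chromosome Y were higher there. With male KO animals throughout and 2 females among the 3 WT animals, sex and genotype cannot be told apart on these chromosomes.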
